A study of Mus musculus with 2 samples.

Results

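Thyroid and corticosteroid hormone response was described through 9 genes picked by symbol from the 55536 annotated genes of the neonatal mouse heart libraries. They are the thyroid hormone receptors Thra and Thrb, the deiodinases Dio2 and Dio3, the transporter Slc16a10, the corticosteroid receptors Nr3c1 and Nr3c2, and the response genes Klf9 and Fkbp5. All 9 were found in the gene table and in both transcript tables of each library. The series holds 1 group: heart tissue of female mice of strain B6CASTF1/J, aged 4 days, with no treatment named. The labels also describe them as B6Cast F1, a first-generation cross. Total RNA, 300 ng as starting quantity, went into 2 stranded libraries depleted of ribosomal RNA and carrying ERCC spike-ins, which are synthetic RNAs of known amount. The labels number the libraries as separate biological replicates 1 and 2, called library 1 and library 2 here, but give them the same donor identifier. With 1 group there is no treated or untreated contrast, so the data answer how high each gene stood and how far the 2 libraries differed. The smallest two-sided permutation p for 2 libraries is 0.5, and no p-value was computed.

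Thyroid hormone enters cells through membrane transporters, is activated by the outer-ring deiodinase Dio2 and inactivated by Dio3, and acts on nuclear receptors that sit on DNA with a retinoid X receptor partner. Corticosteroids bind the glucocorticoid receptor Nr3c1 or the mineralocorticoid receptor Nr3c2, which wait in complexes with heat shock proteins and FK506-binding co-chaperones before they enter the nucleus. Glucocorticoid surges before birth and thyroid hormone rises over the early weeks of a mouse's life, and in the rodent heart thyroid hormone is known for the switch from beta to alpha myosin heavy chain. Klf9, a zinc-finger transcription factor, responds to both hormones, and Fkbp5, a co-chaperone that lowers the hormone affinity of the glucocorticoid receptor, is a standard corticosteroid target.

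Alternative 3′ ends decide whether the product of Thra can bind hormone, so the ends of its 3 main coding models are shown. The coding sequences of Thra-202 (the hormone-binding receptor alpha 1), Thra-201 (alpha 2, known not to bind hormone) and Thra-203 (a shorter alpha 2 variant whose annotated model is incomplete) are the same over 370 codons. They part after position 98764405 of chromosome 11 in the mm10 genome, plus strand. Below, the 30 shared bases before that point are in lower case and the first 90 bases after it in capitals, read from the annotated transcripts (GENCODE M21).
Thra-202: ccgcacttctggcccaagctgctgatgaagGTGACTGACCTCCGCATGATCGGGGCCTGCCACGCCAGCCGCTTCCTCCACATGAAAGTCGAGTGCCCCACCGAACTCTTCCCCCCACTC
Thra-201: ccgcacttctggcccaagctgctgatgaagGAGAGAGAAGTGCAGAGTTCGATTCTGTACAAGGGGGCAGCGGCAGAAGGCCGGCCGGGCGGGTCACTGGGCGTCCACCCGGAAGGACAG
Thra-203: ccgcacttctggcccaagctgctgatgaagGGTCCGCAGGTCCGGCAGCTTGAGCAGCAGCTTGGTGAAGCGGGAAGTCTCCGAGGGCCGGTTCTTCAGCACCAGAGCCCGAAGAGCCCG
Thra-202 reads on within its exon for 40 more codons (the stretch shown lies at chr11:98764376-98764495). Thra-201 continues in an exon that begins at 98768157 and adds 122 codons. Thra-203 joins the same exon at 98768274, 117 bases (39 codons) further in. The last exon of Thra-201 lies wholly inside the span of Nr1d1, a nuclear receptor gene on the opposite strand, and 263 of the coding bases of Thra-201 lie within exons of Nr1d1. For Thra-203 this number is 130, and for Thra-202 it is 0.

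**Figure D1:**
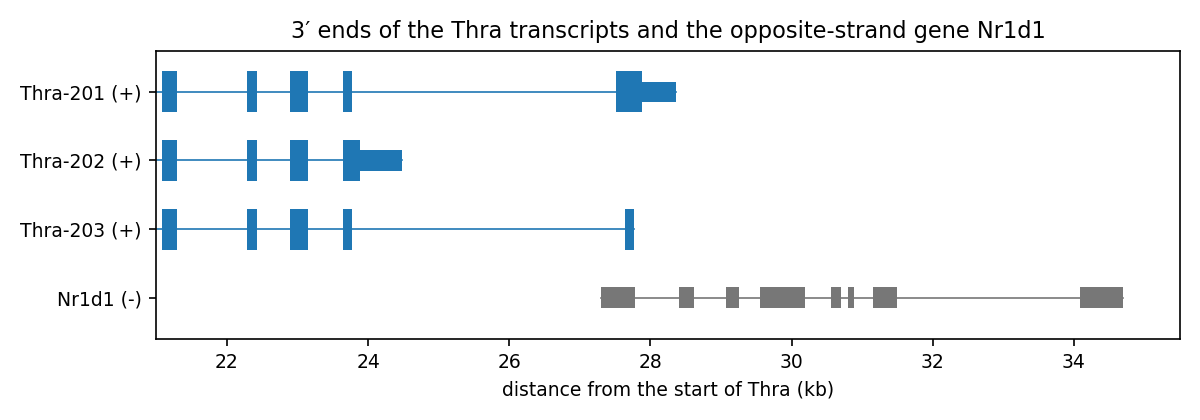
Exons of 3 Thra transcript models and of the opposite-strand transcript Nr1d1-201, plotted against the distance from the start of Thra in kb; tall blocks of Thra are coding, low blocks are not, and Nr1d1 exons are drawn at 1 height. The last exon of Thra-203 lies within the last exon of Nr1d1, that of Thra-201 overlaps it in part, and Thra-202 ends 2820 bases before Nr1d1.

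Thrb also makes 2 receptors, which differ at the other end. Thrb-201 and Thrb-203 encode the same 461 codons (receptor beta 1) and Thrb-202 encodes 475 (beta 2, best known from the pituitary). The models share their last 1100 coding bases and have 283 and 325 coding bases of their own before them. The first 60 coding bases are shown, with the start codon in capitals, because these first exons are what tells the forms apart.
Thrb-201: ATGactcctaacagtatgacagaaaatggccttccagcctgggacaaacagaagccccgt
Thrb-202: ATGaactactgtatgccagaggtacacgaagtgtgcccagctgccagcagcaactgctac
The start of beta 1 spans 2 exons (chr14:17925638-17925659 and chr14:17963061-17963098, plus strand) and that of beta 2 lies in 1 (chr14:17981877-17981936).

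The deiodinases carry selenocysteine, written by a TGA codon inside the reading frame, in their active site. The 30 bases on either side of it are shown for both enzymes, with the TGA in capitals.
Dio2: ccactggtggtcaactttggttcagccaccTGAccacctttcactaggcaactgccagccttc
Dio3: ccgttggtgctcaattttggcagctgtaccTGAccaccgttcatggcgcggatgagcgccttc
In Dio2-201 this is codon 130 of 266 (chr12:90729793-90729855, minus strand), and a further TGA stands at codon 263. In Dio3-202 it is codon 170 of 304 (chr12:110279709-110279771, plus strand) and the single in-frame TGA.

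The tissue matched its label. All 6 heart muscle markers reached 1 TPM in both libraries (TPM is a transcript level per length, scaled to a fixed sum in each library), and summed to 21039 in library 1 and 20619 in library 2. Depth was 36175363 and 32509660 expected counts. The libraries differed in red blood cell genes, whose 6 markers summed to 17278 and 221 TPM, and in skeletal muscle genes (6 markers, 295 and 128 TPM). Acta1 alone made up 263 and 125 TPM of the skeletal muscle sum, so this sum mostly follows Acta1. All 6 skeletal muscle markers were lower in library 2, and 3 of them reached 1 TPM in both libraries. Acta1 had the smallest difference, a log2 ratio of scaled counts of -1.15, while Mylpf (14.6 and 1.23 TPM) had -3.78. Neural and Schwann cell markers summed to 10.9 and 5.04 TPM and macrophage markers to 22.9 and 34.7, with 4 markers each. Fibroblast markers summed to 1178 and 1432 TPM, and all 4 were higher in library 2, by log2 ratios of scaled counts from 0.12 to 0.18. Their part in the values below was not tested. In whole tissue, fewer cells of a type and less RNA per cell cannot be told apart.

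Thra had the highest level of the 9 genes and Dio3 the lowest. Thra (ENSMUSG00000058756.13, chr11:98740638-98769006, plus strand) stood at 75.8 TPM in library 1 and 82.4 in library 2, from 4169 and 3955 counts. Nr3c1 (ENSMUSG00000024431.15, chr18:39410545-39519421, minus strand) followed at 34.4 and 39.2 TPM, from 4468 and 4373 counts. Klf9 stood at 12.1 and 14.7 TPM, Fkbp5 at 9.49 and 8.73, Slc16a10 at 6.34 and 8.61, and Nr3c2 at 6.10 and 4.92. Thrb, at 1.49 and 1.56 TPM, and Dio2, at 1.38 and 1.55, were the lowest genes with reads, and their ranges overlap. No other neighbours in this order overlap, although Fkbp5 and Slc16a10 come within 8.73 and 8.61 TPM of each other. Dio3 had 0 counts in both libraries. In all, 8 of 9 members reached 1 TPM in both libraries.

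A second set of values, from the transcript table in the layout of kallisto summed per gene, kept this order of means. Its mean TPM was higher for each of the 8 members with reads. The median ratio over protein-coding genes that reached 1 TPM was 1.30-fold, and the ratio was 1.72-fold for Nr3c1, 1.71-fold for Thrb and 1.69-fold for Fkbp5. There Klf9 (14.4 and 18.0 TPM) and Fkbp5 (14.9 and 15.9) overlap, and Thrb (3.23 and 1.97) and Dio2 (1.63 and 1.84) do not. So the gaps between Klf9 and Fkbp5 and between Thrb and Dio2 depend on the quantification. Dio3 was at 0 in this set too.

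**Figure D2:**
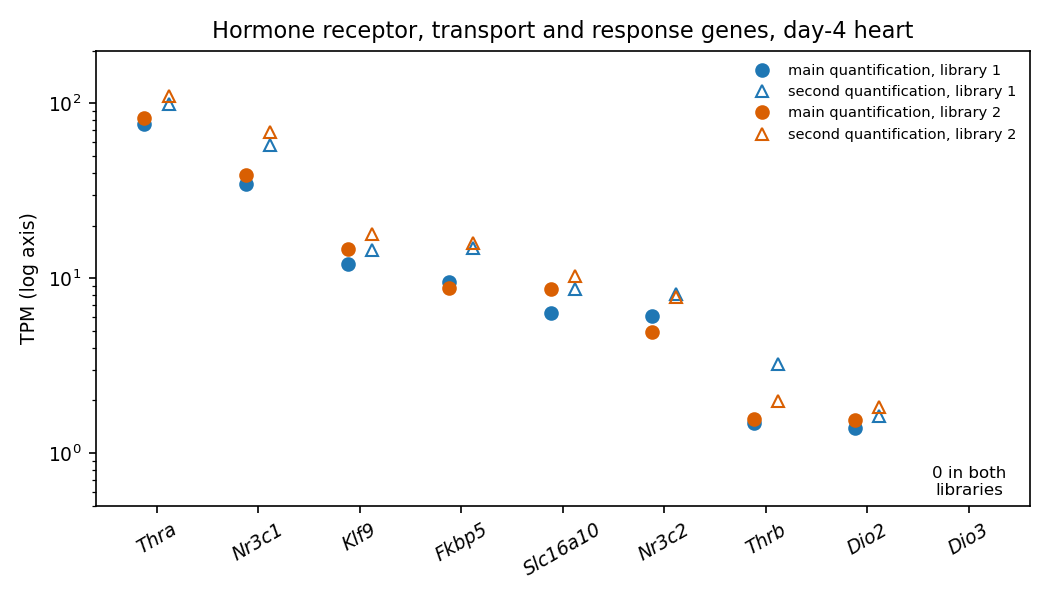
TPM (log axis) of the 9 genes in library 1 and library 2, circles for the main and triangles for the second quantification. Thra (75.8 and 82.4 TPM) and Nr3c1 (34.4 and 39.2) stand above the others, and Dio3 has no point because it is at 0.

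Among 11935 nuclear protein-coding genes that reached 1 TPM in both libraries, Thra ranked 956 and Nr3c1 2210 by mean TPM. Klf9 ranked 5693, near the middle, while Thrb and Dio2 ranked 11566 and 11615, among the lowest. The depth behind a value differs accordingly: Thrb rests on 127 and 113 counts and Dio2 on 222 and 218.

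Of the 2 thyroid hormone receptor genes, Thra made up nearly all of the transcript level. Its mean was 79.1 ± 4.74 TPM (SD, n = 2), against 1.52 ± 0.0495 for Thrb (ENSMUSG00000021779.17, chr14:17660261-18038090, plus strand). The log2 ratio of Thra to Thrb was 5.67 in library 1 and 5.72 in library 2, which is 51.8-fold on average. In the second quantification these ratios were 4.95 and 5.80, or 41.4-fold. Both libraries place Thra far above Thrb in either set. The size is less certain, because the Thrb value in library 1 differs most between the sets. The deposited intervals of Thrb are also wide in both libraries, from 1.28 to 2.71 TPM in library 1 and from 1.36 to 2.77 in library 2.

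Within Thra, the form that does not bind hormone was the higher one. Thra-201 stood at 33.1 TPM in library 1 and 34.2 in library 2, and Thra-202 at 25.0 and 28.9. The ranges do not overlap, and neither do the intervals deposited with the values, which run from 30.3 to 34.2 for Thra-201 against 22.5 to 26.2 for Thra-202 in library 1. In library 2 they run from 31.0 to 35.3 against 26.0 to 30.4. The second quantification gave the same order, with 44.0 and 46.0 TPM for Thra-201 and 32.4 and 35.8 for Thra-202. Thra-203, the shorter variant, stood at 10.8 and 11.5 TPM, and at 10.9 and 12.6 in the second set.

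Adding both forms that share the alternative end, the level was 43.9 and 45.6 TPM. The log2 ratio of the hormone-binding form to this sum was -0.81 in library 1 and -0.66 in library 2, a mean of -0.73 ± 0.11 (SD, n = 2), so that the sum was 1.66-fold higher. The second quantification gave -0.76 and -0.71, 1.67-fold by the mean. Against Thra-201 alone the mean was -0.32 ± 0.12, or 1.25-fold. Nr1d1 itself stood at 12.2 and 11.2 TPM. How strand was treated in the counting is not given in the sources used here, so although the libraries are stranded, reads of the 263 shared bases cannot be told apart by gene here, and their effect on the ratio was not tested. The remaining 6 Thra models, of which 5 have no coding sequence, each stood at 2.66 TPM or less in the main quantification.

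Thrb had too few reads to settle its forms. Thrb-202, the beta 2 model, stood at 0.52 and 0.58 TPM, and the 2 beta 1 models together at 0.47 and 0.45. In the second quantification beta 2 was at 0.645 and 0.585 TPM and beta 1 at 0.636 and 0.820, so the order of the means turned. The deposited intervals of Thrb-203 reach from near 0 to 0.472 in library 1 and to 0.664 in library 2. Thrb-202 is also annotated with 1531 more 3′ bases than Thrb-201, and the tables give no values per exon. Whether its reads came from its own first exon or from the shared exons was not tested. In library 1, 32.2% of the Thrb level was placed on Thrb-206, an incomplete model of 426 bases that was at 0 in library 2.

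The listed partners of these receptors were all present. Each of the 15 listed partners and cofactors reached 1 TPM in both libraries. The corepressor Ncor1 led at 60.9 and 68.4 TPM, and Tbl1x (33.7 and 33.9) and Hdac3 (26.6 and 28.1), subunits of the corepressor complex, were also among the highest. Among 49 nuclear receptor genes, Thra was the highest, and took 16.6% and 17.0% of the summed TPM of the family. Esrra, the estrogen-related receptor alpha of mitochondrial gene control, came next at 49.1 and 53.0 TPM and did not overlap Thra. Thrb ranked 29, below Nr2f1 (2.04 and 2.20) and above Nr6a1 (0.95 and 1.42), with no overlap in the main quantification. In the second set Thrb overlaps both of these neighbours (2.38 and 2.79 for Nr2f1, 2.30 and 2.34 for Nr6a1).

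**Figure D3:**
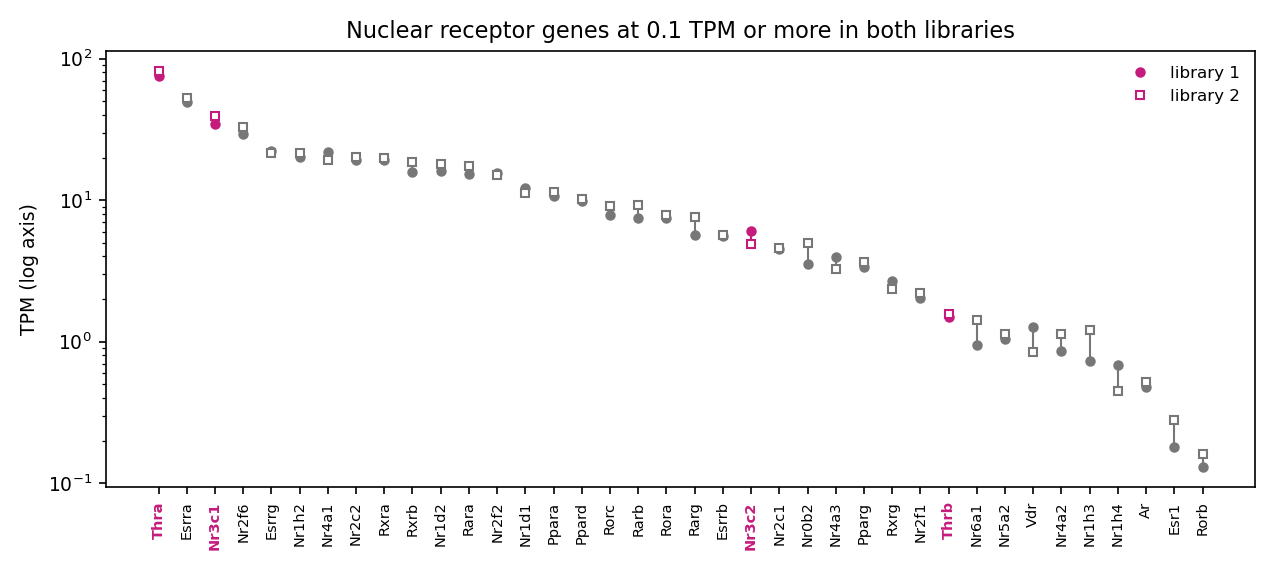
TPM (log axis) of the nuclear receptor genes at 0.1 TPM or more in both libraries, in order of mean TPM, filled circles for library 1 and open squares for library 2, members in magenta. Thra is first, Nr3c1 follows Esrra, Nr3c2 stands near the middle at 6.10 and 4.92 TPM, and Thrb low at 1.49 and 1.56.

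On the supply side, transcripts of hormone transporters were present and those of deiodinases were low or not detected. Slc16a10 (ENSMUSG00000019838.11, chr10:40033532-40142258, minus strand), the aromatic amino acid transporter that also carries thyroid hormone, stood at 7.47 ± 1.61 TPM. The amino acid exchanger Slc7a5 (10.9 and 9.54 TPM), which also carries the hormone, was above Slc16a10, as was its heavy chain Slc3a2 (29.4 and 27.2). Of the 14 genes of the SLC16 family, Slc16a10 ranked 6, below Slc16a6 (10.02 and 8.94) and above Slc16a12 (5.90 and 4.13). The lactate transporter Slc16a1 led at 78.9 and 81.0 TPM, with Slc16a7 (10.8 and 13.1) and Slc16a3 (10.1 and 9.02) lower, and Slc16a5 had 0 and 1 counts.

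The TPM of Slc16a10 differed more between the libraries than its counts. Counts were 643 and 644, while TPM was 6.34 and 8.61, a log2 difference of 0.44. The deposited effective length of the gene was 3614 bases in library 1 and 3047 in library 2, a log2 difference of -0.25, and in library 2 more of the level was placed on Slc16a10-203, an incomplete model of 553 bases (0.41 and 1.60 TPM, from 5.22 and 17.8 counts). The full-length Slc16a10-201 of 512 codons was nearly level, at 3.28 and 3.50 TPM. Slc16a10-202, of 320 codons, stood at 2.10 and 2.67.

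Dio2 (ENSMUSG00000007682.6, chr12:90724552-90738438, minus strand), the activating enzyme, stood at 1.46 ± 0.120 TPM in its single annotated transcript. Dio3 (ENSMUSG00000075707.5, chr12:110279068-110281097, plus strand), the inactivating enzyme, had no count in its 2 transcripts. As a floor for an observed 0, 3 counts were used (about the upper 95% limit from counting error), which for Dio3 is 0.0651 TPM in library 1 and 0.0745 in library 2. Against that floor, set per library, the Dio2 value was 21.2-fold and 20.8-fold higher, with the error of the Dio2 value left out. The interval deposited with the Dio3 value is wider and reaches 0.105 and 0.119 TPM, against which Dio2 was 13.1-fold higher in both libraries. Dio1, the remaining deiodinase, also had 0 counts in both. Dio2 is known from brown fat, and the fat markers Ucp1 (4.59 and 5.88 TPM) and Cidea (26.9 and 23.7) were present in both libraries. Of the 6 fat cell markers 4 reached 1 TPM in both, their sum was 410 and 443 TPM with Fabp4, an endothelial gene too, making up 368 and 408, and Adipoq stood at 2.76 and 0.61. Their part in the Dio2 level was not tested. Of the whole list of 12 transport, activation and binding genes, 5 reached 1 TPM in both libraries.

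Of the corticosteroid receptors, Nr3c1 was the higher. It stood at 36.8 ± 3.34 TPM and Nr3c2 (ENSMUSG00000031618.13, chr8:76899442-77245012, plus strand) at 5.51 ± 0.834. The log2 ratio was 2.50 in library 1 and 2.99 in library 2, which is 6.70-fold on average, and 7.94-fold in the second quantification. In the nuclear receptor family Nr3c1 ranked 3, between Esrra and Nr2f6 (29.4 and 32.7 TPM), with no overlap on either side. Nr3c2 ranked 22, overlapping Esrrb (5.61 and 5.70) and lying above Nr2c1 (4.51 and 4.61). The receptors Hnf4g, Nr1i3, Nr2e1 and Nr0b1 had 0 counts in both libraries, and Nr2e3, Nr1h5, Hnf4a and Nr1i2 had no more than 2 counts in either.

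Which Nr3c1 transcript led depended on the quantification. In the main set Nr3c1-203 held 55.3% and 46.4% of the gene, at 19.0 and 18.2 TPM, and Nr3c1-204 stood at 2.74 and 5.98. In the second set Nr3c1-204 led at 19.4 and 24.7 TPM, and Nr3c1-203 stood at 5.75 and 0.593. The deposited intervals of the main set are wide, from 11.2 to 20.05 TPM for Nr3c1-203 and from 3.24 to 12.3 for Nr3c1-204 in library 2. These models, together with Nr3c1-201, have the same coding sequence of 792 codons, so the split lies between models of the same protein. Summed over the 3, the receptor of 792 codons stood at 21.8 and 24.6 TPM, and at 26.9 and 31.6 in the second set.

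Nr3c1-202 encodes 793 codons, with 3 extra coding bases, and was lower in both sets, at 4.25 and 4.13 TPM and at 5.96 and 5.43. Models with a complete coding sequence held 75.6% and 73.4% of the Nr3c1 level in the main set but 56.9% and 54.0% in the second. There the incomplete models Nr3c1-205 and Nr3c1-206 stood at 10.9 and 15.2, and at 6.56 and 7.95 TPM, against 0.81 and 0.36, and 1.70 and 2.87, in the main set.

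**Figure D4:**
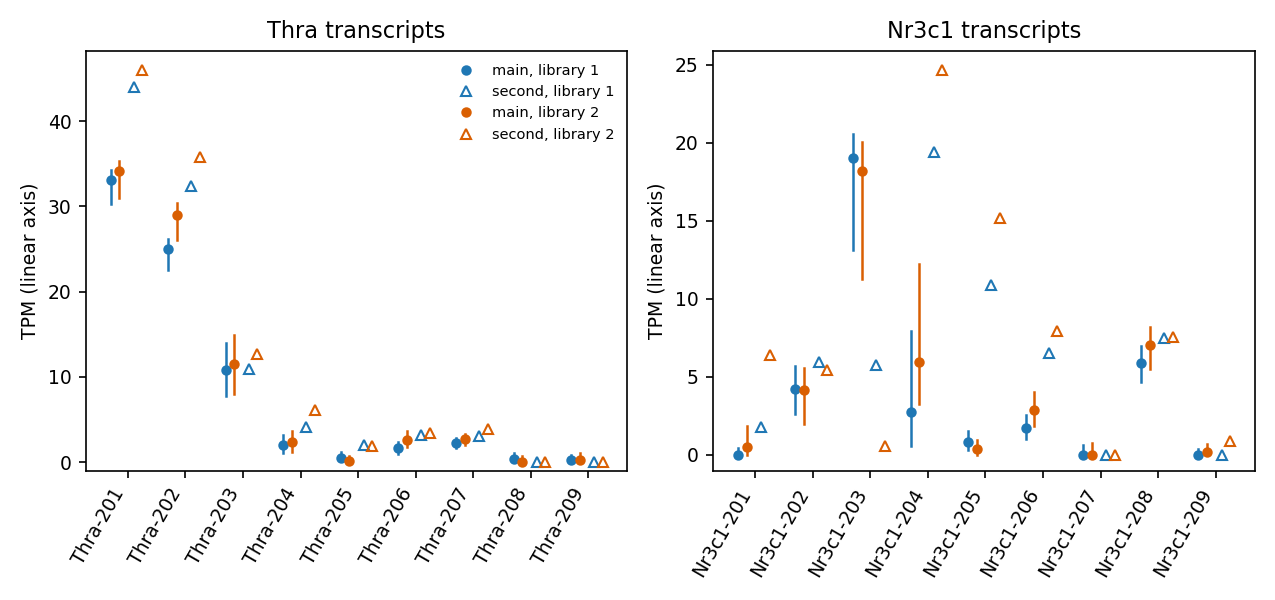
TPM (linear axis) of each annotated transcript of Thra and Nr3c1 in library 1 and library 2; filled circles with lines are the main quantification with its deposited interval, open triangles the second. For Thra both sets put Thra-201 above Thra-202, while for Nr3c1 the main set is led by Nr3c1-203 (19.0 and 18.2 TPM) and the second by Nr3c1-204 (19.4 and 24.7).

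The mineralocorticoid receptor also has a pair of forms, told apart by 12 coding bases. Nr3c2-201 (984 codons) carries them at codon 633 and Nr3c2-203 and Nr3c2-204 (980 codons) do not. They are in capitals below, between 30 bases on either side (chr8:77085637-77085678 and chr8:77155202-77155231, plus strand).
Nr3c2-201: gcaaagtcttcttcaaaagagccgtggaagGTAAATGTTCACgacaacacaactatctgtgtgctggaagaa
The form of 980 codons stood at 3.65 and 3.15 TPM. Nr3c2-201, the form with the insertion, was at 0 in library 1 and 0.56 in library 2, and at 0.919 and 2.20 in the second quantification. Both sets put the shorter form higher in both libraries (4.05 and 3.30 TPM in the second). The gap in gene TPM between the libraries, 6.10 against 4.92, coincided with Nr3c2-206, an incomplete model of 612 bases at 1.76 TPM in library 1 and 0 in library 2. In the second quantification the gene stood at 8.12 and 7.76 TPM, a smaller gap.

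The local supply of steroid was low at the transcript level. Hsd11b1, which regenerates active glucocorticoid, stood at 0.68 and 0.35 TPM from 25 and 10 counts. Hsd11b2, which inactivates it, stood at 0.23 and 0.28 from 11 and 12. The log2 ratio of Hsd11b1 to Hsd11b2 was 1.56 in library 1 and 0.32 in library 2, with an SD of 0.88 beside a mean of 0.94. With 10 counts against 12 in library 2, the order of the pair there is not settled at this depth. H6pd, which feeds Hsd11b1 with cofactor, stood at 15.6 and 17.2 TPM and the steroid exporter Abcb1a at 1.94 and 2.18. These were the 2 of 10 listed genes that reached 1 TPM in both. The corticosteroid-synthesis enzymes Cyp11b1, Cyp11b2 and Cyp21a1 and the plasma carrier Serpina6 had 0 counts in both libraries. Cyp11a1 (12 and 9 counts) and Star (19 and 19), in the same list, were low but not at 0.

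Receptor chaperones were abundant and Fkbp5 was the lowest of them. All 10 listed reached 1 TPM in both libraries, led by Hspa8 (526 and 538), Hsp90ab1 (502 and 497), Hsp90aa1 (131 and 133) and Bag1 (86.7 and 90.7). Fkbp5 (ENSMUSG00000024222.17, chr17:28399094-28517527, minus strand) stood at 9.11 ± 0.537 TPM. Fkbp4, the co-chaperone that promotes receptor transport to the nucleus, stood at 88.3 and 88.4. The log2 ratio of Fkbp5 to Fkbp4 was -3.22 and -3.34, which is 9.71-fold lower, and 7.64-fold lower in the second quantification. In the FKBP family of 15 genes Fkbp5 ranked 10, below Fkbp7 (10.6 and 13.3) and above Fkbp14 (7.55 and 8.25). Fkbp1a (201 and 195), Fkbp3 (90.1 and 99.1) and Fkbp8 (90.2 and 95.1) led the family ahead of Fkbp4.

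The leading Fkbp5 transcript was the same in both sets, and its TPM as given was nearly the same. Fkbp5-201, of 456 codons, stood at 7.29 and 7.31 TPM, and at 7.26 and 7.43 in the second quantification. Its share of the gene was 76.8% and 83.8% in the main set but 48.6% and 46.7% in the second. In TPM as given, the higher gene level in the second set therefore lay on the other 14 models, of which 8 have no coding sequence. The median ratio of the second set to the main was 1.30-fold, so relative to the median gene Fkbp5-201 was lower there. The deposited interval of Fkbp5-201 in library 2, 5.32 to 7.22 TPM, lies below its main value of 7.31.

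Klf9 (ENSMUSG00000033863.2, chr19:23141226-23168134, plus strand), which appears on both response lists, stood at 13.4 ± 1.80 TPM. Klf9-201, with the full 244 codons, held 96.0% and 93.7% of it. In the KLF family of 17 genes Klf9 ranked 8, and its range overlapped those of Klf10 (13.6 and 13.6 TPM) and Klf7 (13.1 and 13.6) next to it. Klf3 (33.8 and 36.8), Klf6 (27.5 and 28.5), Klf2 (28.9 and 26.4) and Klf13 (23.6 and 25.8) were the highest, and Klf17 had 0 counts in both.

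All 14 listed thyroid hormone responsive genes reached 1 TPM in both libraries. The highest were the alpha myosin heavy chain Myh6 (7039 and 6860), the calcium pump Atp2a2 (2226 and 2257), its inhibitor Pln (1377 and 1469) and Myh7 (782 and 766), the beta myosin chain that hormone is known to repress. Myh7 depended on the quantification: it stood at 1675 and 1583 TPM in the second, where Myh6 was 4.20-fold and 4.33-fold above it, against 9.004-fold and 8.95-fold in the main set. Of 23 corticosteroid responsive genes 19 reached that level. By mean TPM in the main set they were led by the metallothionein Mt1 (74.7 and 71.2), the pyruvate dehydrogenase kinase Pdk4 (73.6 and 62.2), the leucine zipper gene Tsc22d3 (44.8 and 49.2) and the kinase Sgk1 (31.1 and 32.1). Sgk1 overlapped the phosphatase gene Dusp1 (30.8 and 32.2) next to it and ranked 6 in the second quantification. The epithelial sodium channel subunits Scnn1b and Scnn1g, targets of the mineralocorticoid receptor in kidney, had 0 and 1, and 1 and 0 counts. The subunit Scnn1a, in the same list, had 32 and 28 counts (0.37 and 0.34 TPM). These levels come from 1 age and no hormone treatment, so they carry no measure of response.

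Between the libraries the members differed about as much as the tested genes in general. Rounded counts were scaled by TMM and compared as library 2 over library 1. Calls required a 2-fold difference, 20 counts over both libraries, 1 TPM on average and an exact Clopper-Pearson interval at the 95% level free of equality. This rule called 118 of 13598 genes, or 0.868%, and 0 of the 8 members that passed the filters on level and count. The median log2 ratio of these 8 was 0.06 and their median absolute ratio 0.10, against -0.003 and 0.09 over all genes tested. The intervals describe counting error alone, because the reads carry no molecular identifiers and so may repeat a molecule.

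The largest ratio in size was that of Klf9, at 0.17 (interval 0.06 to 0.27). Nr3c1 had 0.08 (0.02 to 0.14), and for these 2 the interval excluded equality. The share of all tested genes with such an interval is not given here, so this is no result about the members. It holds for TMM scaling, and intervals under other scalings are not given here. All 4 fibroblast markers were higher in library 2 as well, and so were all 4 macrophage markers, by 0.19 (Cd68) to 0.83 (Lyz2). Of the smooth muscle and pericyte markers 3 were higher and 1 was lower. The part of these cell types in the ratios was not tested. The other 6 intervals included equality, from Thra at 0.03 (-0.03 to 0.10) to Nr3c2 at -0.16 (-0.32 to 0.01). That of Thrb, at -0.06, was the widest (-0.44 to 0.32). Scaling by spike-ins moved the median gene to 0.13 and turned the sign of Thrb, from -0.06 to 0.07, and of Fkbp5, from -0.13 to 0.01. On the TPM scale the median tested gene stood at 0.08, so TPM ratios run above those of scaled counts. Of the listed genes none was called, with medians of -0.02 over 14 tested thyroid hormone responsive genes and 0.04 over 19 tested corticosteroid responsive genes. Chosen after its value was seen, the clock gene Per1 had the largest ratio of the latter list, 0.52, at 24.7 and 36.9 TPM.

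**Figure D5:**
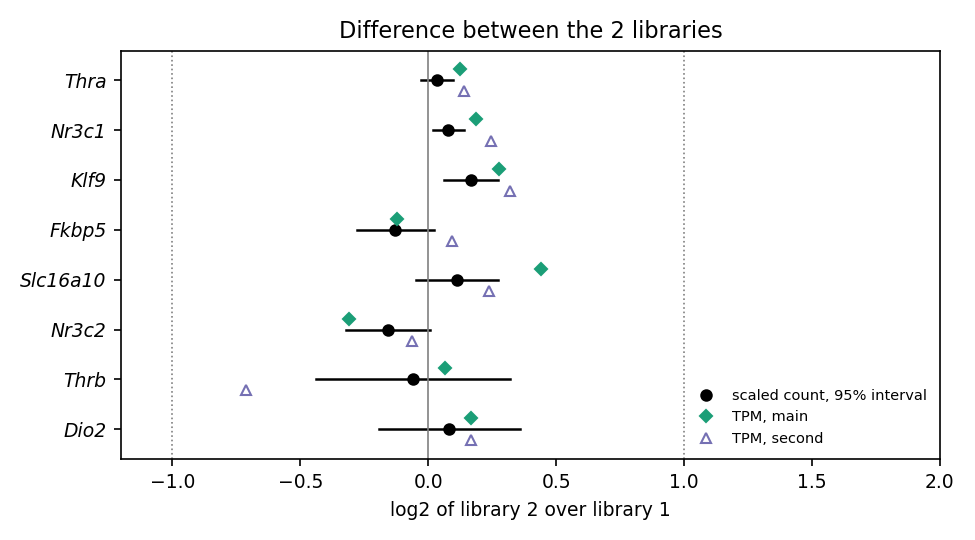
Log2 of library 2 over library 1 for the 8 members with reads; black points are TMM-scaled counts with the exact 95% interval, green diamonds TPM of the main and open triangles TPM of the second quantification, and dotted lines mark 2-fold. No member reaches 2-fold, and the TPM ratios farthest from the scaled counts are those of Slc16a10 (0.44, main) and Thrb (-0.71, second).

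Promoter windows from RefSeq (GRCm38.p6, 250 bases before to 50 after a gene start) were given for 7 of the 9 members, in 8 windows. None was given for Thra or Nr3c1, so the search does not cover these receptor genes. No window held an exact AGGTCA repeated after 4 bases on either strand, the classic arrangement for a thyroid hormone receptor, nor AGAACA and TGTTCT spaced by 3, the classic one for corticosteroid receptors. Among the windows of 17491 protein-coding genes these strings occurred in 0 and 2 genes, so exact matches of this kind are rare in windows of this length.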

How the data were processed

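Total RNA from heart was sequenced in 2 libraries of 1 group. Per the notes deposited with each library, values refer to mm10 and annotation M21, and each library has gene and transcript values in the layout of RSEM and a further transcript table in the layout of kallisto. The RSEM-like tables hold expected counts, TPM and isoform percent values, all as deposited. For the programs used, name and version: not given in the sources used here, nor is the strand setting. The kallisto-like table, with estimated counts and TPM as deposited, was summed per gene. Spike-ins took 0.582% and 0.547% of expected counts and were left out of TMM scaling.

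Members, lists, markers and pairs were chosen with earlier results of these data known. The share of all protein-coding genes that reached 1 TPM is not given here, so counts of listed genes at that level have no background. In each list the 4 genes highest by mean TPM, those under 3 counts in both libraries, pair partners and family neighbours were named. Scnn1a, Cyp11a1 and Star were added outside this rule, beside related genes of their lists. No likeness of pattern was computed, since 2 libraries cannot give one. Expected counts were rounded and compared with a prior count of 0.5 after TMM scaling in edgeR 4.0.16 under R 4.3.3. The rule was tested on simulated data that held counting error alone, so differences between biological replicates were not covered. Changes were simulated only in genes at higher levels than Thrb and Dio2, so genes as low as these were not covered either. Coding sequences and coordinates (1-based) came from GENCODE M21. These sequences and the promoter windows are reference sequence and were not read from the animals sampled. Differences of the cross from the reference were not examined. Python 3.11.15, numpy 2.4.6, pandas 2.3.3 and scipy 1.17.1 were used. Alternatives were the second quantification, posterior mean TPM, rescaled TPM, DESeq2 1.42.0 size factors, spike-in scaling, other filters and each library alone. Motifs further upstream were not analysed here. Some single results under the naming rule are not reported here.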

Additional observations from a re-analysis of the deposited data

How the results depend on the processing

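No paired analysis was possible because the design holds 1 group. In the second quantification TPM was 105 for Thra, 2.60 for Thrb, 1.73 for Dio2, 9.49 for Slc16a10, 63.3 for Nr3c1, 7.94 for Nr3c2, 16.2 for Klf9 and 15.4 for Fkbp5. Rescaled to the sum of nuclear protein-coding genes, these were 173, 3.34, 3.21, 16.4, 80.7, 12.1, 29.4 and 19.98 in the same order. The second quantification rescaled in the same way, an alternative chosen after seeing the data, gave 161 for Thra, 4.00 for Thrb, 2.68 for Dio2, 97.6 for Nr3c1, 25.0 for Klf9 and 23.8 for Fkbp5, and stayed within 1 SD of the rescaled main value for Slc16a10 and Nr3c2. Posterior mean TPM moved Thrb to 2.00, Nr3c2 to 6.38 and Fkbp5 to 10.2, and was 0.045 for Dio3. The ratio of Dio2 to Dio3 was not evaluated, nor a ratio of Dio3 between libraries. The log2 ratio of Thra to Thrb was 5.37 in the second quantification and 5.28 by posterior mean, and that of Fkbp5 to Fkbp4 was -2.93 and -3.10. No ratio of a pair changed sign. The cause was not tested. At a fold of 1.5, 310 of the 13598 genes tested were called between the libraries. Without the filter on low values 583 were called, out of a larger number of genes that is not given here. Members called were 0 in either setting, and with so few genes called this is no result about the members. Spike-in scaling moved the ratio of Thra to 0.17, of Nr3c1 to 0.21 and of Klf9 to 0.30. The share of Nr3c1-203 fell from 50.9% to 5.40% in the second quantification. Each library alone kept every level and ratio within 1 SD, which 2 libraries force. Thrb rests on 127 and 113 counts and the Hsd11b pair on 10 to 25 counts per library.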
